A study of Homo sapiens with 6 samples.

Results

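The genes described here make, break down or bind hyaluronan, together with CD44, the main hyaluronan receptor of epithelial cells. They were read on 6 Affymetrix arrays of COLO-320DM cells, an established line from a human colorectal cancer, 3 from cells sorted as CD44-positive and 3 from cells sorted as CD44-negative, each group numbered 01, 02 and 03. All cells were untreated. Nothing in the labels ties the replicates to separate cultures, and the p-values therefore cover the spread among these 6 arrays, part of which may be technical. The members were 10 genes fixed by name (CD44, HAS1, HAS2, HAS3, HYAL1, HYAL2, HYAL3, HMMR, LYVE1 and STAB1), and a probe set was taken where one of them was its only gene symbol. This gave 27 of 54675 probe sets and 8 genes, since HAS1 and HYAL1 had no such probe set in the annotation used and were not analysed here.

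Hyaluronan is a long unbranched sugar polymer of the extracellular matrix. The synthases HAS1, HAS2 and HAS3 extrude it through the plasma membrane from UDP-glucuronic acid and UDP-N-acetylglucosamine, and hyaluronidases of the HYAL family cut it at the cell surface and in lysosomes. CD44 binds it at the surface and connects it through ezrin, radixin and moesin to the actin cytoskeleton, HMMR (RHAMM) is a hyaluronan binder best known inside the cell as a mitotic spindle protein, and LYVE1 and STAB1 are receptors of lymphatic endothelium and of macrophages.

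Values are log2 of the intensity that RMA, the standard background correction, normalization and summary of Affymetrix arrays, gave for a probe set, and a difference is CD44-positive minus CD44-negative on that scale. A probe set was tested where its mean over the 6 arrays reached 5.12, the 30th percentile of all named genes. This limit ranks brightness and is not a detection call. The median intensity of an array lay between 44.9 and 46.5. Of 9 colorectal epithelial markers, KRT8, KRT18, KRT20, CDX2, VIL1 and CDH17 were above the limit in both groups, while EPCAM and CDH1 were under it in both. CLDN7 was under it in the CD44-positive group only. EPCAM, not tested, differed by -0.47 without overlap between the groups, and CDH1, not tested, by -0.092 with overlap. Of the 7 tested, 3 were higher and 4 lower. KRT20 differed by 0.63, the only 1 of the 7 without overlap between the groups (14.3%, against 5.43% of all genes). None of the 7 passed the test used below. The number of arrays limits the precision of every value.

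CD44 was the sort marker, so its transcript is a check of the sort and no finding. It was read by 13 probe sets, 7 of them above the limit. On 204489_s_at, the CD44 probe set with the highest mean, CD44 stood at 7.86, 8.12 and 7.11 in CD44-positive arrays 01, 02 and 03, against 5.41, 5.29 and 4.99 in CD44-negative arrays 01, 02 and 03. The groups did not overlap, and array 03 was the lowest of the CD44-positive group. The difference was 2.47 ± 0.24 (SE, n = 3 each), a 5.54-fold higher level. It had an adjusted p of 0.106 by limma over the 13842 genes tested and of 0.00176 with the replicate number as a block, and an exact permutation test, two-sided, gave p = 0.1, the smallest that 3 arrays against 3 allow. Without CD44-positive array 03 the difference without the block was 2.76 (limma, adjusted p = 0.00430), and without CD44-positive array 01 it was 2.39 (adjusted p = 1.00).

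The other bright CD44 probe sets gave the same direction and varied in size. In 6 of the 7, all but 204489_s_at, the CD44-negative mean lay under the limit, so these passed it through the CD44-positive arrays and had to differ, and their values are a description only. The widest difference was on 212063_at, with 8.51, 8.90 and 7.91 in the CD44-positive arrays against 2.76, 4.0 and 3.21 in the CD44-negative arrays. This is a difference of 5.12 with a 95% interval from 4.33 to 5.90, or 34.7-fold. The narrowest was on 1557905_s_at, with 7.21, 7.57 and 6.43 in the CD44-positive arrays against 4.93, 5.21 and 4.88 in the CD44-negative arrays. Its difference was 2.06 (95% interval 1.46 to 2.67), or 4.18-fold. Between these, 204490_s_at differed by 3.00, 209835_x_at by 2.79, 210916_s_at by 2.52 and 212014_x_at by 2.34. Sizes against so dim a group are approximate. Whether the probe sets differ from one another was not tested, and the part of the transcript each one reads was not analysed here.

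**Figure D1:**
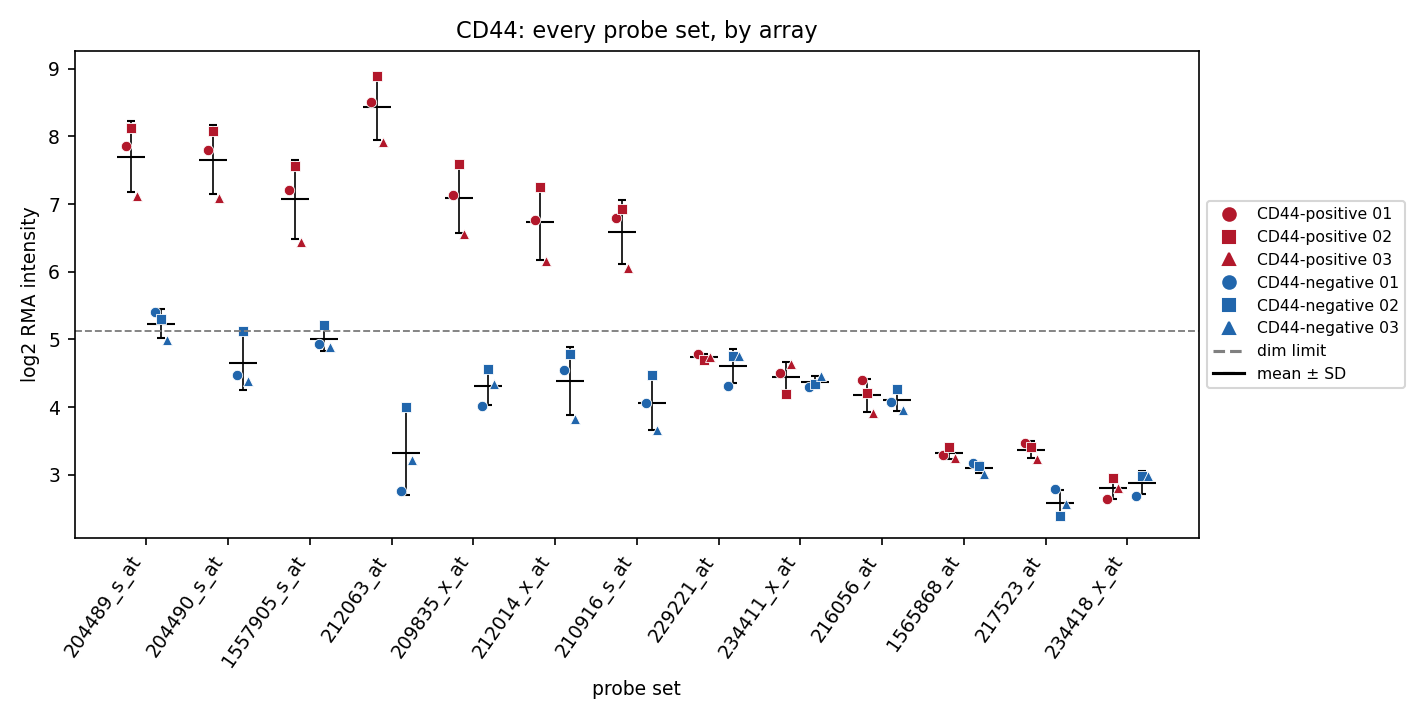
log2 RMA intensity of CD44 (vertical axis) on each of its 13 probe sets (horizontal axis), with a point for every CD44-positive (red) and CD44-negative (blue) array, black bars for the mean ± SD and a dashed line at the limit of 5.12. On the 7 probe sets at the left all red points lie above all blue points, and on 212063_at the CD44-positive arrays reach 7.91 to 8.90 against 2.76 to 4.0 in the CD44-negative arrays.

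Errors, intervals and p values given for single probe sets come from a fit of all 26117 probe sets above the limit, and those of CD44 on 204489_s_at above from the fit over genes. In the fit of probe sets 204489_s_at, the only CD44 probe set with both group means above the limit, had an adjusted p of 0.0600 by limma without the block and of 0.000612 with it, where 0.0115% and 0.107% of probe sets passed. Nothing is read from the calls of the other 6, which the brightness filter had selected through the CD44-positive arrays. Over genes, CD44 was the only member among the 7 member genes tested that passed with the block, where 0.0578% of genes did, and no gene passed without it (0% called, with 273 genes at an unadjusted p under 0.05). The probe sets of CD44 read 1 transcript population and are not independent of one another.

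The level of CD44 also varied within the sorts. On all 7 bright probe sets CD44-positive array 02 was the highest and 03 the lowest of the CD44-positive arrays. Among the CD44-negative arrays 02 was the highest on 6 probe sets and 03 the lowest on 5. These 6 were the probe sets with a CD44-negative mean under the limit, so this order was read from dim values. On 204489_s_at CD44-negative array 01 was the highest, at 5.41 against 5.29 (02) and 4.99 (03). The median difference over the 7 probe sets was 2.72 between the arrays numbered 01, 2.83 between those numbered 02 and 2.34 between those numbered 03. Bulk arrays cannot tell fewer CD44-expressing cells from less CD44 RNA per cell.

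The remaining 6 CD44 probe sets were dim and were not tested. On 217523_at CD44 stood at 3.48, 3.41 and 3.23 in the CD44-positive arrays, against 2.79, 2.39 and 2.57 in the CD44-negative arrays, so the groups did not overlap. The same held for 1565868_at, with means of 3.31 in the CD44-positive arrays and 3.10 in the CD44-negative ones. The other 4, 229221_at, 234411_x_at, 216056_at and 234418_x_at, overlapped between the groups, and differences over the 6 ranged from -0.085 to 0.79.

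Fibroblasts also express CD44, so markers of that and of other cell types were read beside it. Of 9 fibroblast markers, 6 were tested, 3 higher and 3 lower, with a median difference of 0.0078, and none passed limma's test with or without the block. COL3A1 had means of 11.1 (CD44-positive) and 10.3 (CD44-negative), with an adjusted p of 0.0526 with the block. COL1A2 differed by 0.31 and COL1A1 by -0.23, both without overlap. These 2 of 6 are 33.3%, against 5.43% of all genes, and nothing particular to the list is read from so few genes. The CD44-negative mean of COL1A2, 5.09, lay under the limit, so COL1A2 passed it through the CD44-positive arrays. PDGFRB differed by -0.13, while PDGFRA and FAP were under the limit in both groups. LUM had a mean under the limit and was not tested, at 5.63, 4.18 and 3.84 in the CD44-positive arrays against 2.36, 2.79 and 2.44 in the CD44-negative arrays, so the groups did not overlap. The summed intensity of the 9 fibroblast markers was 1528 to 3719 over the CD44-positive arrays, against 1214 to 2343 over the CD44-negative arrays. Without COL3A1, the brightest of them, the sum of the other 8 was 471 to 539 over the CD44-positive arrays, against 493 to 513 over the CD44-negative arrays. Whether any fibroblasts were among the sorted cells, and what part they had in the CD44 difference, was not tested. The sum of 8 macrophage markers was 219 to 239 over the CD44-positive arrays and 233 to 254 over the CD44-negative arrays, and that of 7 leukocyte markers was 375 to 392 (CD44-positive) and 378 to 419 (CD44-negative). Of 8 neuroendocrine markers, 3 were tested, all higher, with a median difference of 0.17, and none passed limma's test with or without the block. SYP differed by 0.17, ENO2 by 0.49 and NCAM1 by 0.080. Only SYP was without overlap (33.3%, against 5.43% of all genes), and nothing is read from so few genes. The CD44-negative mean of ENO2, 4.93, lay under the limit, so ENO2 passed it through the CD44-positive arrays.

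The stretch before the CD44 start site is shown because CD44 is the member whose transcript differed. It is the RefSeq sequence of GRCh38.p14, chr11:35138921-35139170, plus strand, which is the 250 bases up to the start, with GGGCGG, the core letters bound by SP family factors, in capitals on either strand.
CD44: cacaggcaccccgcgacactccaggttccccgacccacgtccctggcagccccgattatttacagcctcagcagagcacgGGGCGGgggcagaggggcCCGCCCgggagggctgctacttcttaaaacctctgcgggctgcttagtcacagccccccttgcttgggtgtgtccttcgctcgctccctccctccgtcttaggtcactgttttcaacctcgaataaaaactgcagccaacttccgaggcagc
GGGCGG occurred 2 times, beginning 170 and 152 bases before the start, and it occurred in 42.6% of the 35116 RefSeq promoter windows of this length. Searched on both strands, CCAAT (in 32.0% of all windows), the letters TTTGAA (13.3%), the TATA box letters TATAAA (10.7%), the AP-1 letters TGANTCA (6.57%) and the TCF/LEF letters CTTTGAT (2.26%) were not in this window. These are matches of letters and say nothing about binding.

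The synthases did not pass the test. HAS2, the synthase that makes long chains, was read above the limit by 230372_at, at 5.06, 5.66 and 5.22 in the CD44-positive arrays, against 5.41, 5.67 and 5.41 in the CD44-negative arrays. Arrays numbered 02 were the highest in both groups and the groups overlapped. The difference was -0.18 ± 0.16 (SE, n = 3 each, 95% interval -0.55 to 0.19), with an adjusted p of 1.00 by limma and of 0.692 with the block, and it was negative in 3 of 3 pairs of same-numbered arrays (-0.34, -0.0087 and -0.19), where 28.5% of all genes kept 1 sign in all pairs. This was the largest absolute difference of a tested member other than CD44. The second HAS2 probe set, 206432_at, was dim, at 3.88, 4.50 and 3.57 in the CD44-positive arrays against 3.86, 4.39 and 3.75 in the CD44-negative arrays, again with array 02 the highest in each group.

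HAS3, which makes shorter chains, was at 5.91, 6.0 and 5.95 in the CD44-positive arrays on 223541_at, against 5.96, 6.16 and 5.79 in the CD44-negative arrays. All CD44-positive values fell between the lowest and highest CD44-negative values, and the difference was -0.015 (95% interval -0.27 to 0.24). On 1552980_at HAS3 stood at 5.31, 5.47 and 5.0 in the CD44-positive arrays against 5.05, 5.43 and 4.96 in the CD44-negative arrays, a difference of 0.11 (-0.27 to 0.49). The probe sets thus differed in sign, and both had an adjusted p of 1.00 by limma.

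Of the hyaluronidases, HYAL2 is anchored at the cell surface and cuts long chains, and HYAL3 is a family member with little activity of its own. HYAL2 stood at 8.22, 8.20 and 7.96 in the CD44-positive arrays, against 8.30, 8.25 and 7.99 in the CD44-negative arrays. It followed the replicate numbers, with 03 the lowest in each group, and the differences within pairs 01, 02 and 03 were -0.076, -0.052 and -0.038. The difference of -0.055 ± 0.12 (SE, n = 3 each, 95% interval -0.34 to 0.23) was smaller than the SD of the CD44-positive arrays, 0.15, and of the CD44-negative arrays, 0.16, and its adjusted p by limma was 1.00.

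HYAL3 was at 6.07, 5.77 and 5.54 in the CD44-positive arrays, against 5.85, 5.83 and 5.69 in the CD44-negative arrays. Array 01 was the highest and 03 the lowest in each group, the CD44-positive arrays spanned a wider range, and the means were 5.80 (CD44-positive) and 5.79 (CD44-negative). The difference was 0.0034 (95% interval -0.32 to 0.33, adjusted p = 1.00 by limma).

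HMMR was read by 207165_at at 10.39, 10.57 and 10.33 in the CD44-positive arrays, against 10.37, 10.48 and 10.39 in the CD44-negative arrays. The groups overlapped, with array 02 the highest in each. The difference was 0.016 (95% interval -0.21 to 0.24, adjusted p = 1.00 by limma). On 209709_s_at HMMR stood at 9.28, 9.45 and 9.31 in the CD44-positive arrays against 9.26, 9.47 and 9.28 in the CD44-negative arrays, a difference of 0.012 (-0.22 to 0.24).

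The HMMR start region is shown beside that of CD44 because it holds letters typical of genes expressed late in the cell cycle. It is the RefSeq sequence of GRCh38.p14, chr5:163460382-163460631, plus strand, 250 bases up to the start. Capitals mark CCAAT, the letters bound by NF-Y, and TTTGAA, the letters of the cell cycle homology region, on either strand.
HMMR: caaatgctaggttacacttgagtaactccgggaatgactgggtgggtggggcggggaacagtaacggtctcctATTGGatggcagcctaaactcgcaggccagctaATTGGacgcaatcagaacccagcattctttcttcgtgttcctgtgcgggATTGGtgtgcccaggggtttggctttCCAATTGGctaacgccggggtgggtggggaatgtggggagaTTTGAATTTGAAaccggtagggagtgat
CCAAT occurred 5 times, beginning 177, 144, 95, 69 and 66 bases before the start, the last pair overlapping on opposite strands, and TTTGAA occurred 2 times, 28 and 22 bases before it. Of all windows 0.874% held 4 or more CCAAT and 4.69% held both motifs. Of 24 genes of a list of 29 mitotic spindle and G2/M genes with a window here, 20 held CCAAT, 12 TTTGAA and 11 both. The windows of CD44, HAS3, HYAL1, HYAL2, HYAL3 and STAB1 held no CCAAT and no TTTGAA. That of HAS1 held no CCAAT but held TTTGAA, beginning 30 bases before the start.

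LYVE1 and STAB1, the receptors of other cell types, did not pass the test where they could be tested. LYVE1 was dim on both of its probe sets and was not tested. On 219059_s_at it stood at 4.70, 4.94 and 5.05 in the CD44-positive arrays, against 5.22, 5.05 and 4.99 in the CD44-negative arrays, with overlap. On 220037_s_at it stood at 2.67, 2.58 and 2.69 in the CD44-positive arrays against 2.53, 2.57 and 2.44 in the CD44-negative arrays, where the groups did not overlap and the arrays numbered 02 nearly met.

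STAB1, a scavenger receptor, was above the limit on 3 of 4 probe sets. On 38487_at it was at 6.64, 6.58 and 6.76 in the CD44-positive arrays, against 6.55, 6.69 and 6.58 in the CD44-negative arrays. The groups overlapped, and the difference was 0.052 (95% interval -0.16 to 0.27). The differences of 204150_at and 1555319_at were 0.0020 and -0.050, all 3 with an adjusted p of 1.00 by limma, and the dim 1555320_a_at differed by 0.10. Of the lymphatic markers read with LYVE1, PROX1 and FLT4 were above the limit and PDPN under it in both groups.

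**Figure D2:**
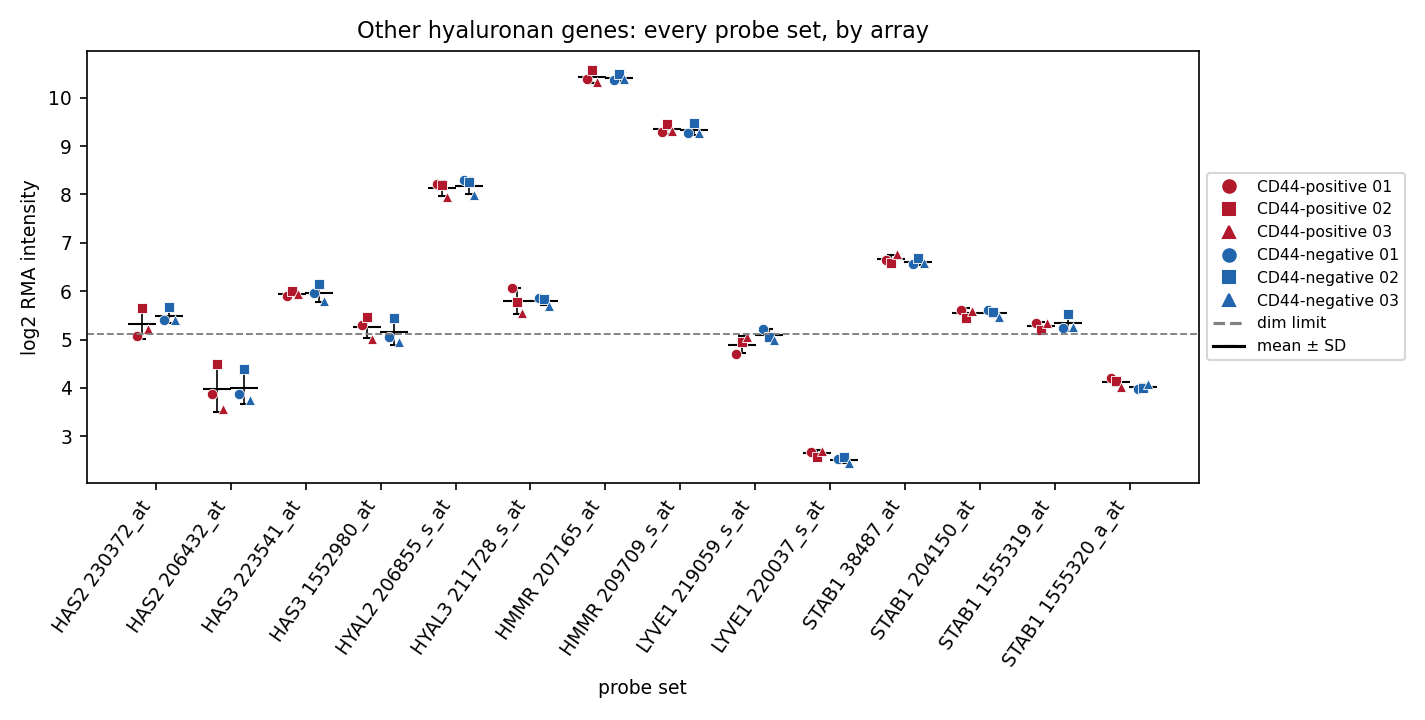
log2 RMA intensity (vertical axis) on the 14 probe sets of HAS2, HAS3, HYAL2, HYAL3, HMMR, LYVE1 and STAB1 (horizontal axis), with a point for every CD44-positive (red) and CD44-negative (blue) array, black bars for the mean ± SD and a dashed line at the limit of 5.12. The red and blue points overlap on all 14 but LYVE1 220037_s_at, and levels of different probe sets cannot be compared with one another.

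Over the 10 tested probe sets of these members, differences ranged from -0.18 to 0.11, 6 above and 4 under 0. None passed limma's test with or without the block, and none had an unadjusted p under 0.05 in either fit, against 1.85% of all tested probe sets without the block and 7.72% with it. The groups overlapped on all 10, where 5.58% of all tested probe sets did not overlap. The 95% intervals lay between -0.55 and 0.49, which leaves room for changes of up to about that size, and a p that misses the threshold does not show that the levels were equal.

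**Figure D3:**
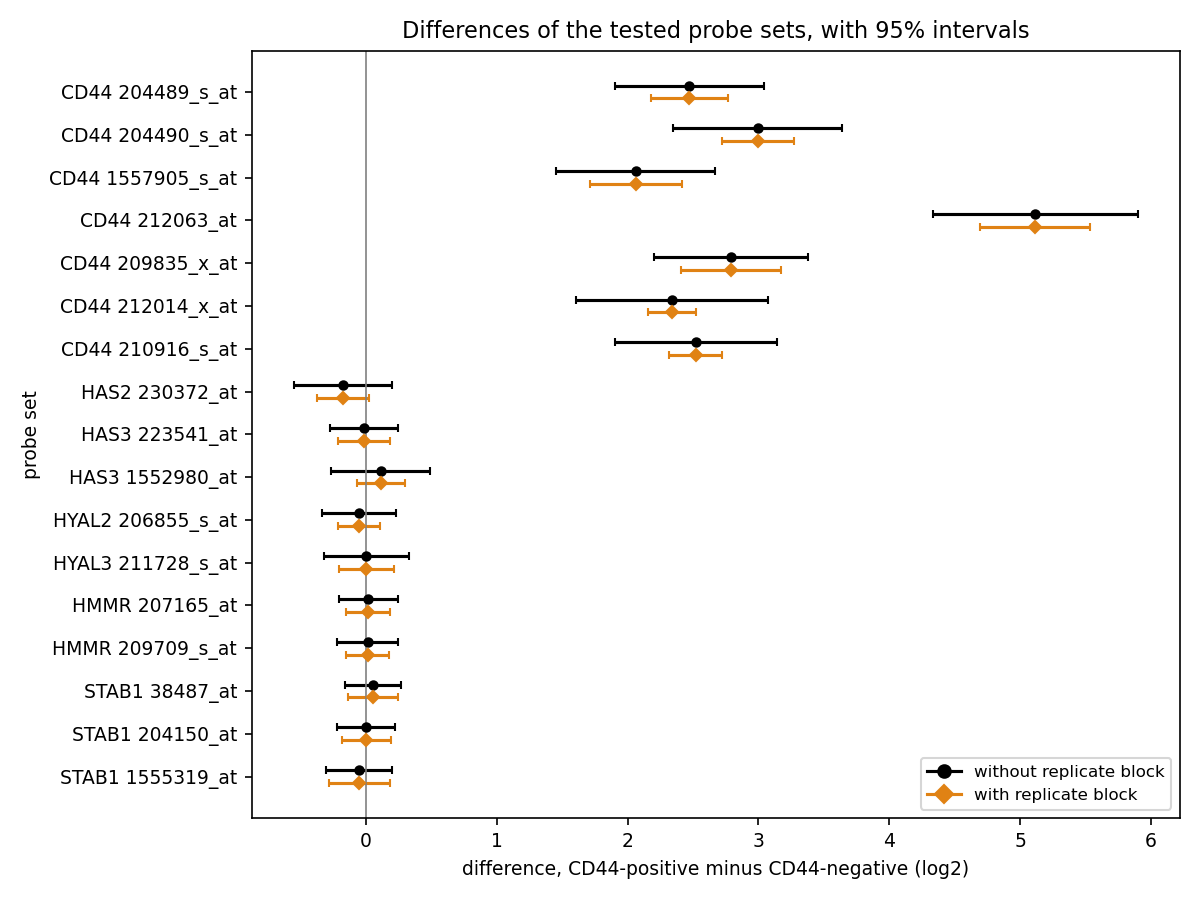
Difference between CD44-positive and CD44-negative arrays on the log2 scale (horizontal axis) for the 17 tested probe sets of the hyaluronan genes (vertical axis), with 95% intervals from limma without (black circles) and with (orange diamonds) the replicate block. The 7 CD44 probe sets lie at 2.06 to 5.12, and the intervals of all 10 others include 0.

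Which genes ran most like each member was read as Pearson's r over the 6 arrays among the tested genes, as a description. CD44 separates the groups, so its r mainly orders genes by their separation. The highest were ZNF580 (r = 0.991), BTBD10 (0.981), PITPNA (0.975), FERMT2, which encodes the integrin adaptor kindlin-2 (0.974), and PDHX, a subunit of pyruvate dehydrogenase (0.974). The lowest were WASF3 (-0.990), an actin regulator, AK5 (-0.984) and PAPLN (-0.971). These genes differed by 0.18 to 0.32 at the high end and by -0.25 to -0.36 at the low end, and none passed limma's test over all genes with the block (smallest adjusted p = 0.209, for PAPLN). The CD44-positive mean of AK5, 5.03, lay under the limit, so AK5 passed it through the CD44-negative arrays and its values are a description only.

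For the other members the likest genes differed little between the sorts. HYAL2 was most like SEPHS2 and MRPL35 (r = 0.996 each), HYAL3 like EEIG2 (0.999) and PPP4R1 (0.998), HMMR like INKA2-AS1 (0.995) and NAP1L4 (0.993). HAS2 was most like COG6 (0.992) and UNC13D (0.991), HAS3 like LOC101927702 (0.992) and CCDC59 (0.990), and STAB1 like ITIH2 (0.982) and CCR4 (0.980). These genes differed between the sorts by -0.16 to 0.13. Among the members, HAS2 and HMMR had r = 0.768 and HYAL2 and HYAL3 r = 0.765, while CD44 had r between -0.295 and 0.285 with each of the other 6. HAS2 and HMMR share the number of their highest array, 02 in each group, while their lowest CD44-positive arrays were 01 and 03. HYAL2 and HYAL3 share both, with 01 highest and 03 lowest in each group. The arrays are not independent of these numbers, and the values do not separate a replicate effect from variation shared by the genes.

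Other genes around hyaluronan and CD44 were read as lists of known function. None of their members passed limma's test over all genes with or without the block. Their medians are to be read against that of all genes tested, -0.0025. Other hyaluronan binders had 11 of 23 genes tested, 5 higher and 6 lower, with a median of -0.0039. HABP4 differed by 0.24, HAPLN1, a link protein that fastens hyaluronan to proteoglycans, by -0.22, and TLR2 by 0.17. Genes of hyaluronan breakdown read together with other lysosomal sugar enzymes had 7 of 10 tested, 4 higher and 3 lower, with a median of 0.012. The sulfatase IDS, which acts on heparan and dermatan sulfate and not on hyaluronan, differed by 0.17, the glucuronidase GUSB by -0.089 and CEMIP, a hyaluronan-depolymerising protein, by -0.068. The UDP-sugar genes that supply the synthases had 14 of 17 tested, 6 higher and 8 lower, with a median of -0.011. Hexokinase HK1 differed by -0.12, UGDH, which makes UDP-glucuronic acid, by -0.089 and GNPNAT1 by -0.085.

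The partners of CD44 in the membrane and cytoplasm had 17 of 23 genes tested, 9 higher and 8 lower, with a median of 0.0099. EZR, the gene of ezrin, had group means of 10.10 (CD44-positive) and 9.82 (CD44-negative), a difference of 0.28 ± 0.23 (SE, n = 3 each). Its pairs differed by 0.32, 0.061 and 0.46, and its adjusted p by limma with the block was 0.506. The kinase gene FYN differed by 0.30 (0.463 with the block) and SLC7A11, the cystine transporter that CD44 variants are known to stabilise, by -0.26 (0.662). In none of the 17 were the groups free of overlap, against 5.43% of all genes.

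CD44 ligands and the proteases that shed or cleave CD44 had 19 of 25 genes tested, 9 higher and 10 lower, with a median of -0.0096. FN1, the gene of fibronectin, had means of 6.63 (CD44-positive) and 6.94 (CD44-negative), a difference of -0.31 ± 0.09 (SE, n = 3 each, limma, adjusted p = 1.00 without and 0.292 with the block), and COL1A1 differed by -0.23. The groups did not overlap in these 2 of 19, or 10.5%, against 5.43% of all genes, and nothing particular to the list is read from so few genes. TIMP1, an inhibitor of matrix metalloproteinases, differed by 0.35 (adjusted p = 0.462 with the block), with pairs of 0.35, 0.61 and 0.083.

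Mitotic spindle and G2/M genes, read because HMMR is a spindle protein, had 29 of 29 tested, 12 higher and 17 lower, with a median of -0.016. KIF23 differed by -0.26, NUF2 by -0.19 and TTK by -0.12, and in KIF23 and NUF2, 6.90% of the list, the groups did not overlap, a share near the 5.43% of all genes. Between arrays of the same number the median over these genes was 0.043 (01), -0.017 (02) and -0.046 (03), where all genes tested had 0.025, -0.0076 and -0.021, of the same signs and order, and HMMR had 0.022, 0.082 and -0.055.

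**Figure D4:**
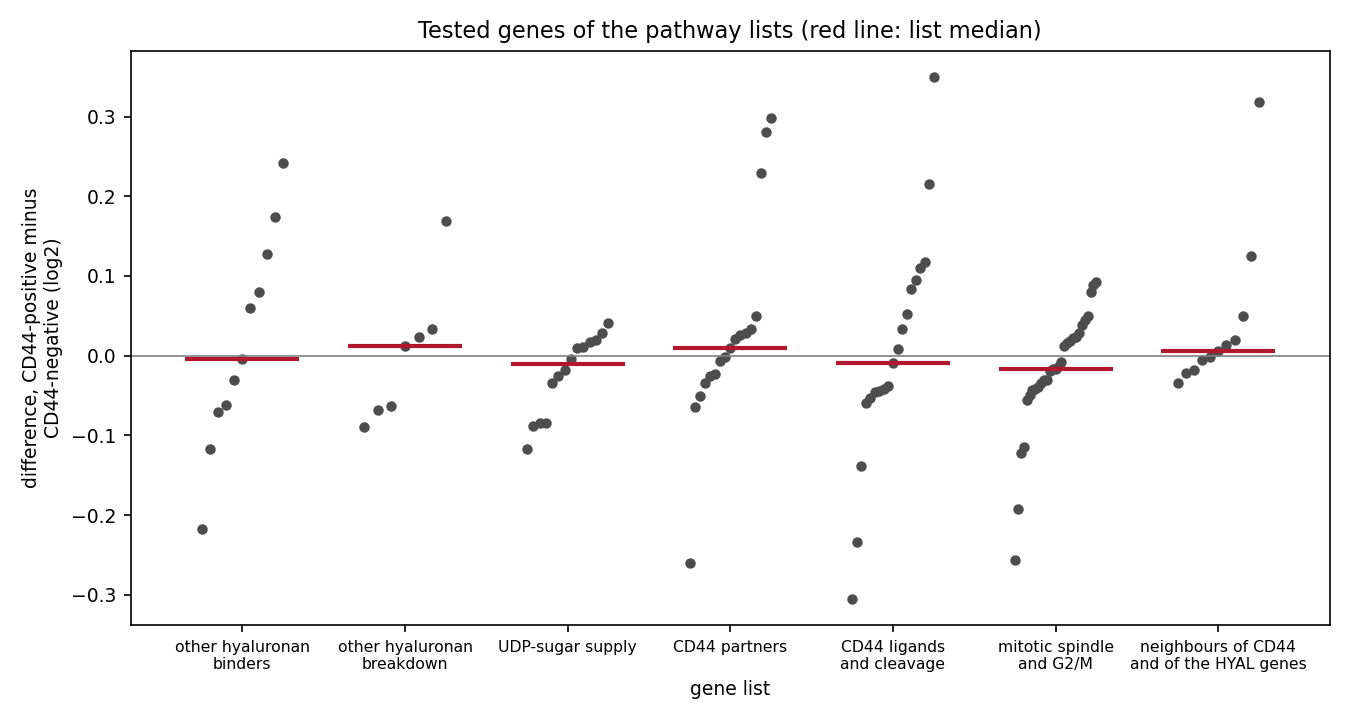
Difference between CD44-positive and CD44-negative arrays on the log2 scale (vertical axis) for each tested gene (points) of the 7 lists (horizontal axis), with the list median as a red line. All medians lie between -0.016 and 0.012, and the highest single value is TIMP1 at 0.35.

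Genes next to the members on the chromosome were read too. Of 13 neighbours of CD44 and of the HYAL genes, 11 were tested, 6 higher and 5 lower, with a median of 0.0056. PDHX, which lies directly beside CD44, was at 10.62, 10.64 and 10.59 in the CD44-positive arrays, against 10.38, 10.28 and 10.23 in the CD44-negative arrays. The groups did not overlap, and the difference was 0.32 ± 0.08 (SE, n = 3 each, 95% interval 0.13 to 0.51), with an adjusted p of 1.00 by limma and of 0.256 with the block. APIP, next after PDHX, differed by 0.13, IFRD2, beside the HYAL genes, by 0.050, and SLC1A2, on the other side of CD44, by -0.0060.

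Because of PDHX, and so after the values were seen, the 10 tested genes on each side of CD44 were read out in the order of RefSeq (GRCh38.p14). Of these 20 genes 14 were higher and 6 lower, with a median difference of 0.068. The groups did not overlap in 4, all higher, PDHX, PRR5L, TRAF6 and LRRC4C, where 2.82% of all genes were higher without overlap. In PRR5L and LRRC4C the CD44-negative mean (5.116 and 5.118) lay just under the limit of 5.123. These genes passed it through the CD44-positive arrays, so their values are a description only. The most different was PRR5L, which encodes a component associated with the mTORC2 kinase complex. It stood at 5.75, 5.39 and 5.84 in the CD44-positive arrays, against 5.16, 4.94 and 5.25 in the CD44-negative arrays, a difference of 0.54 ± 0.14 (SE, n = 3 each, limma, adjusted p = 1.00 without and 0.0640 with the block). None of the 20 passed, and this window was chosen on these values.

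**Figure D5:**
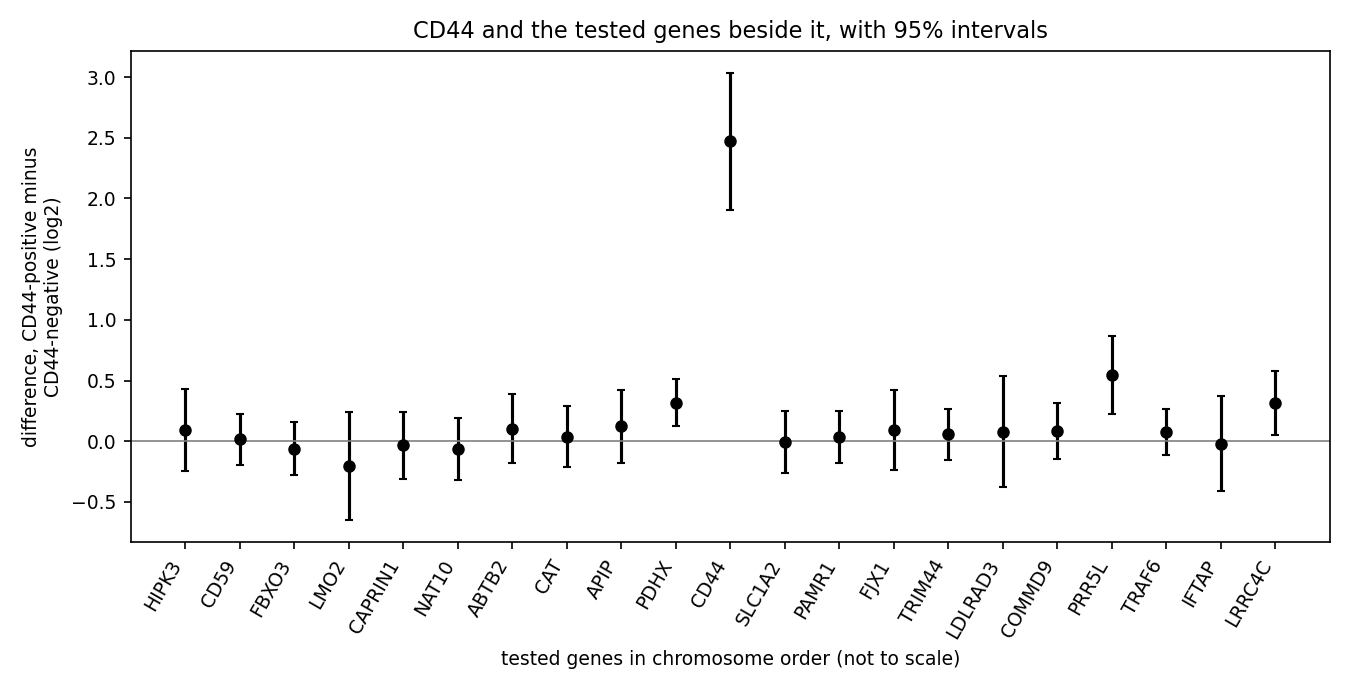
Difference between CD44-positive and CD44-negative arrays on the log2 scale (vertical axis) for CD44 and the 10 tested genes on each side of it in chromosome order (horizontal axis, not to scale), with 95% intervals from limma without the block. CD44 stands at 2.47, PRR5L at 0.54 and PDHX and LRRC4C at 0.32 each.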

How the data were processed

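Biotin-labelled RNA of the sorted cells was read on Affymetrix arrays, per the labels' protocols. The deposited values are linear intensity values to which the authors had applied RMA, per the submitters' processing notes. Neither its version nor a build is given in the sources used here. RMA can compress differences near background. Log2 was taken with no pseudocount.

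Of 54675 probe sets, 41091 had 1 gene, 1801 several and 11721 none, and 62 were controls. Symbols were updated from RefSeq by gene ID for 41037. Each of 19775 genes was represented by its probe set with the highest mean, and 13842 at or above the 30th percentile were tested. Member probe sets came from a fit of 26117 probe sets above the same limit.

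Groups were compared with limma 3.58.1 in R 4.3.3 (lmFit, eBayes), two-sided, with Benjamini-Hochberg adjustment over all features and a threshold of 0.05, tested on simulated data. The simulated arrays were independent and had no replicate effect, so that test does not cover variation shared by same-numbered arrays. Errors are limma's SE. Deviations from group means correlated at 0.465, 0.689 and 0.626 between same-numbered arrays and from -0.496 to -0.107 otherwise. Deviations within a group cancel out, so the positive values push the others under them to negative ones, which are no separate evidence. On the positive values the numbers were taken as pairs, from the data and not from the labels. Values from the blocked fit stand beside each result whose call they change.

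The members, lists and rules were chosen with earlier results of these data known. All members were to be named, with the 3 largest absolute differences of each list, the 5 highest and 3 lowest correlates of CD44 and the 2 highest of other members. Other genes were named after their values were seen. Promoter windows were searched with Python 3.11.15 and pandas 2.3.3, and figures drawn with matplotlib 3.10.9. The alternatives were scaling, dim limits, probe set choice, a variance trend and left-out arrays.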

Additional observations from a re-analysis of the deposited data

How the results depend on the processing

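CD44 was higher in the CD44-positive cells under all 18 alternatives, by 1.65 with the mean of its probe sets up to 5.12 on 212063_at, the brightest once probe sets with the suffixes _s_at, _x_at and _a_at are dropped. Without the block, leaving out each array gave 2.26 to 2.76. The replicate block left it at 2.47 and passed it, as did the block without pair 01 (2.48), 02 (2.29) or 03 (2.64). CD44 also passed with no filter on dim genes (2.47, limma, adjusted p = 0.0371). Without those suffixes it passed too (5.12, limma, adjusted p = 0.00222), but on 212063_at, whose CD44-negative mean of 3.32 lay under the limit. Nothing is read from that call.

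The number of genes called was 0 as planned and 8 with the replicate block. With the block and without pair 01, 02 and 03 it was 10, 63 and 127. It was 2 with no dim filter, 1 without the suffixes and 0 to 1 when an array was left out. With every probe set, 3 probe sets were called, all of CD44. The number of member genes called was 0 as planned and 1, CD44, under each of these 7 settings. It was 0 to 1 when an array was left out. Without the suffixes and with every probe set, the call of CD44 rested only on probe sets with a CD44-negative mean under the limit. Nothing is read from it there. Of member probe sets, where 6 of the 7 of CD44 had passed the brightness filter through the CD44-positive arrays, 3 were called as planned, 7 with the block and with the block without any 1 pair, 1 with quantile normalization, 5 with no dim filter and 0 at the 50th percentile, where 5 remained to be tested. Leaving out an array gave 0 to 6, with 0 without CD44-positive array 01 or 02 or CD44-negative array 03 and 6 without CD44-positive array 03.

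No other member was called under any alternative that tested it. Of the 18 alternatives, HAS2 and HYAL3 were tested in 16, HAS3 and HYAL2 in 17, and HMMR and STAB1 in all 18. HAS2 stayed negative where it was tested, from -0.35 to -0.053. HAS3 turned to 0.0019 and 0.058 with the block without pair 01 or 02 and to 0.048 with the mean of probe sets, HYAL3 to -0.11 with the block without pair 01 and to -0.0041 with quantile normalization, HMMR to -0.017 with the block without pair 02 and STAB1 to -0.012 with the block without pair 03. When an array was left out HAS3 ranged from -0.11 to 0.080, HYAL2 from -0.15 to 0.030, HYAL3 from -0.14 to 0.13 and HMMR from -0.052 to 0.065. The signs of these members are therefore not settled.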
